A study of Homo sapiens with 12 samples.

Results

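The genes described here are 42 genes of mitosis and of the G2/M transition, chosen by symbol as known genes of cell division, with no measured value in the rule. They were picked, as were all lists below, with earlier results of these data known. All 42 were present among the 23106 symbols of the count files, and all 42 were among the 13000 genes with enough counts to be tested. They were measured by bulk RNA-seq in RCC4 cells, an established human line from a clear cell renal cell carcinoma that lacks a working VHL protein, so that HIF-1α and HIF-2α are kept at 21% O2. The cells in all groups were the parental line, and they differed only in the siRNA pools they received 48 h before harvest. Control cells received 2 nM control siRNA. HIF1A siRNA cells received 1 nM HIF1A siRNA with 1 nM control siRNA, and HIF2A siRNA cells received 1 nM of a pool against EPAS1, the gene of HIF-2α, with 1 nM control siRNA. The double knockdown received 1 nM of each HIF pool, so the total was 2 nM in all 4 groups. Each group had 3 libraries, which the study calls biological replicates and which carry the numbers 1 to 3 in every group. Since 1 cell line was used, the results speak for RCC4 cells only.

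Mitosis genes are transcribed in waves. Their RNAs are low in G1, accumulate from late S phase and peak in G2 and M, so in a growing culture their bulk level follows both the share of cells in G2/M and the RNA content of those cells, which cannot be told apart here. Repression in G0 and G1 runs through the DREAM complex, whose DNA-binding subunit LIN54 reads a short element called the CHR, and activation runs through B-MYB (MYBL2) and FOXM1 on the same promoters, commonly together with NF-Y, which binds CCAAT. HIF-1 and HIF-2 bind a different core, ACGTG or GCGTG. HIF-1α is known in renal carcinoma for slowing the cell cycle and HIF-2α for favouring growth.

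Many promoters of the members hold some of these letters, but not all hold each kind. A few are shown, from genes on which the results below turn (ANLN and KIF11) and from markers of dividing cells (CCNB1, PLK1 and MKI67). Each is the 120 bases directly before the start site in RefSeq, build GRCh38.p14, written 5′ to 3′ on the strand of the gene. Capitals mark the CHR, read as TTTGAA or as its variant TTTAAA, then the NF-Y letters CCAAT, and the HIF core with either of its first letters, on either strand. The CHR and CCAAT letters share 1 base where they run together in MKI67, and in ANLN the CHR letters stand on both strands side by side.
ANLN, chr7:36389742-36389861, plus strand: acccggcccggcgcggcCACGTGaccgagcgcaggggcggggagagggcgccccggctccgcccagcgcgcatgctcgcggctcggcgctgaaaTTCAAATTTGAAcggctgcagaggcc
KIF11, chr10:92593010-92593129, plus strand: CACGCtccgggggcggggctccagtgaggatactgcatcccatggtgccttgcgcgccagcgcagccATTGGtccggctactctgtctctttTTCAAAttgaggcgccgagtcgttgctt
CCNB1, chr5:69167030-69167149, plus strand: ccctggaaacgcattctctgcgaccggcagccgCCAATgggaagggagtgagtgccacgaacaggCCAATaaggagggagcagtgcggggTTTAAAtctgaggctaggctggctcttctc
PLK1, chr16:23678769-23678888, plus strand: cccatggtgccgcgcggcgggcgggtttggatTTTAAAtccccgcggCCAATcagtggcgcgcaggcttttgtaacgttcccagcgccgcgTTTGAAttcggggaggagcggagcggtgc
MKI67, chr10:128126424-128126543, minus strand: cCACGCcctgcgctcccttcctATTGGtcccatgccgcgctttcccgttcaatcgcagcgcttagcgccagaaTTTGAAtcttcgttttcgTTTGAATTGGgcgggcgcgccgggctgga

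Over the full windows of 300 bases (250 before the start and 50 after it), 37 of the 42 members had a promoter in the RefSeq table. AURKA, TTK, UBE2C, BIRC5 and TPX2 had no entry. TTTGAA was found in 26 of the 37 promoters (70.3%) against 15.2% of all 35116 promoters, and TTTAAA in 37.8% against 12.2%. At least 1 of the CHR letters stood in 32 of the 37 (86.5%) against 24% of all promoters. The window held neither in CCNA2, CDC25C, BUB1, SPC24 and AURKB. CCAAT was found in 78.4% against 34.6%, and ACGTG or GCGTG in 67.6% against 48.4%. These are matches of letters and are not binding sites.

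HIF1A and EPAS1, the genes that the siRNAs target, were low in the libraries labelled with their siRNA. HIF1A stood at 58.2 to 120 CPM (counts as a rate over the library total, scaled by edgeR's TMM factor) with control siRNA, at 18.3 ± 3.62 CPM (SD, n = 3) with HIF1A siRNA and at 24.2 to 32.2 CPM in the double knockdown. EPAS1 stood at 138 to 171 CPM with control siRNA, at 9.16 to 11.9 CPM with HIF2A siRNA and at 7.01 to 11.3 CPM in the double knockdown. With HIF1A siRNA, EPAS1 stood at 101, 107 and 134 CPM, below every control library, with a log2 fold change of -0.47 ± 0.16 (SE; edgeR, adjusted p = 0.275, unadjusted p = 0.00973). Total counts per library lay between 13263168 and 20451433, and the 42 genes took 0.572 to 0.720% of them. Counts of single members ran from 51 (SPC24 in 1 library) to 12659. All 7 markers of renal epithelium were tested, with a summed level of 891 to 1404 CPM, while the 4 endothelial markers summed to at most 0.432 CPM, the 4 leukocyte markers (1 tested) to 32.6 to 65.1 CPM and the 4 markers of fibroblasts and pericytes (3 tested) to 26.7 to 94.3 CPM. The leukocyte sum was almost all CD68 (32.6 to 65.1 CPM). PTPRC and CD3E were 0 in every library and CD14 was at most 0.689 CPM. The part of these markers in the results was not tested.

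Per kilobase of transcript, the members differed widely in level. PTTG1, the securin that holds separase inactive, was highest with 200 CPM per kilobase averaged over the 12 libraries, followed by UBE2C with 181 and CDC20 with 148, both of which serve the anaphase-promoting complex. The lowest were SPC24 with 3.48, CENPE with 8.71 and CDC25C with 9.45 CPM per kilobase. The order depended on the replicate number: in replicate 3 alone, geometric means put PTTG1 at 126 CPM per kilobase, below UBE2C (137), CDC20 (134) and CCNB1 (132), and CDC25C (8.42) below CENPE (9.13). All 42 genes had counts in every library.

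With the quasi-likelihood test of edgeR on the 12 libraries, blocked by replicate number and adjusted by Benjamini-Hochberg for the 13000 genes, 3 of the 42 genes passed an adjusted p of 0.05 in the double knockdown against control siRNA and none did with either siRNA alone. ANLN and KIF11 fell and BIRC5 rose. The 3 genes are 7.14% of the members, against 10.3% of all genes tested that were called in that comparison. In 1 direction at a time, 2 members fell against 6.42% of all genes that fell, and 1 member rose against 3.86% that rose. The members' share was thus no larger than the background.

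**Figure D1:**
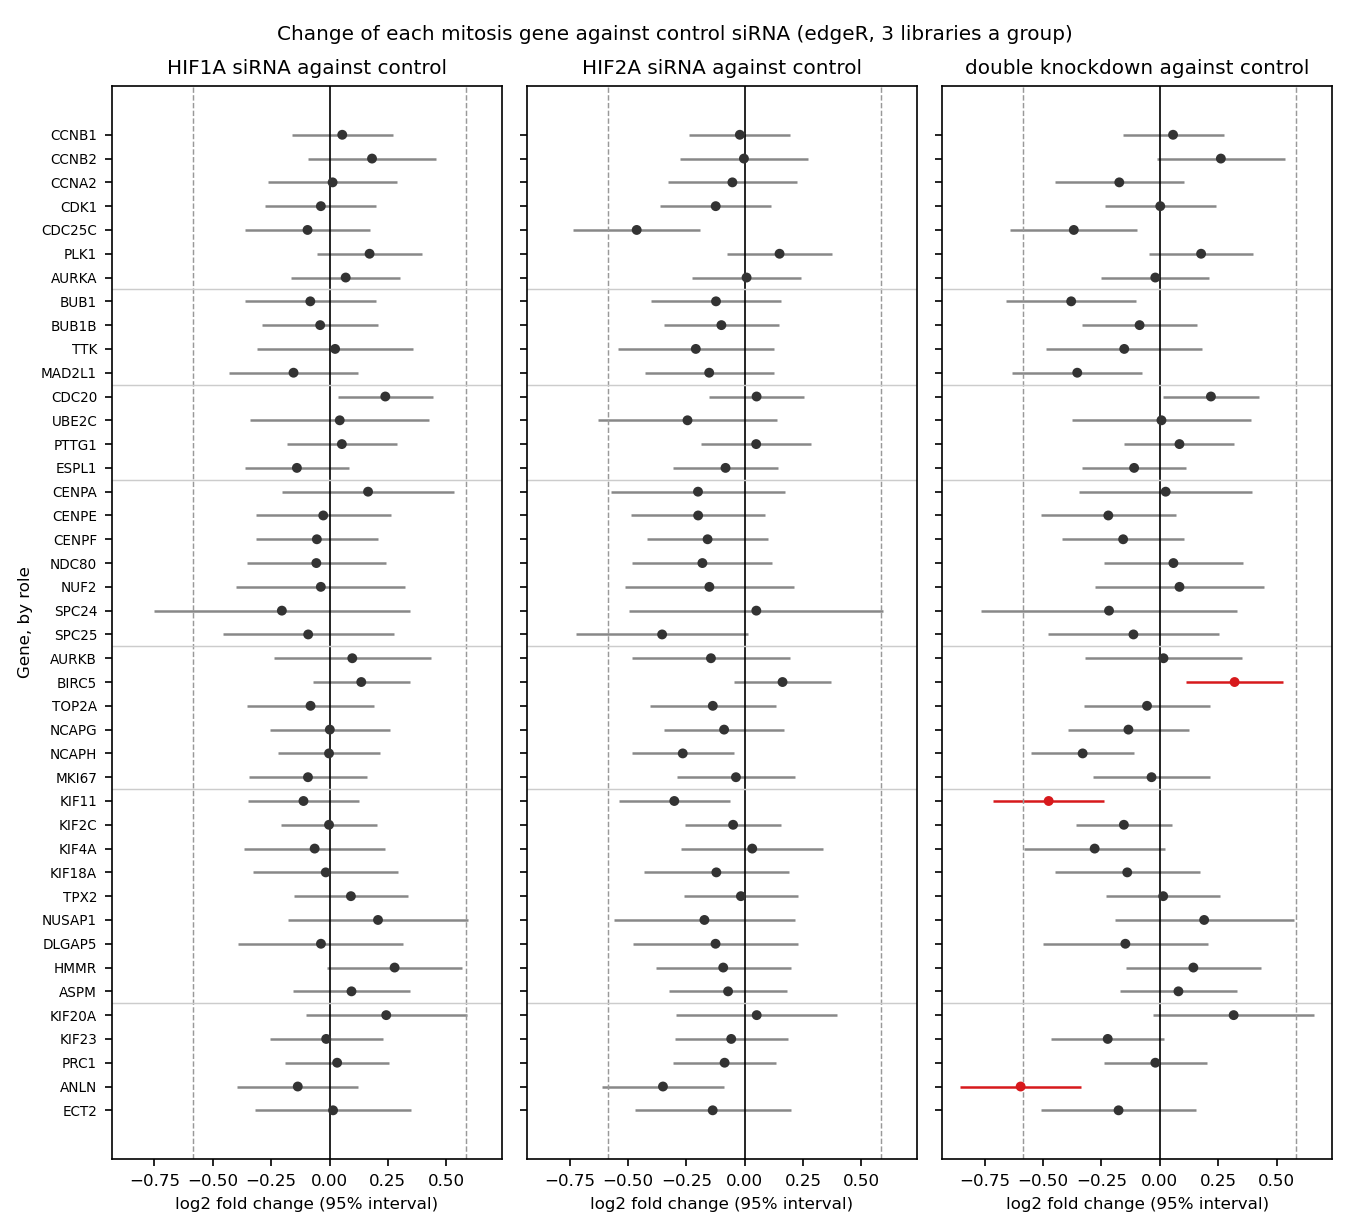
Log2 fold change (x axis) of each of the 42 genes (y axis, ordered by role) against control siRNA, for HIF1A siRNA, HIF2A siRNA and the double knockdown. Points are edgeR estimates from 3 libraries a group, bars are 95% intervals, dashed lines mark 1.5-fold and red marks an adjusted p under 0.05. Only ANLN, KIF11 and BIRC5 in the double knockdown are red, and most intervals stay inside the dashed lines.

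ANLN encodes anillin, the scaffold that ties actin, septins and RhoA together at the cleavage furrow. Its level was 554, 432 and 684 CPM in control replicates 1, 2 and 3, and 331, 304 and 477 CPM in the double knockdown. It was 388, 514 and 616 CPM with HIF1A siRNA and 373, 388 and 554 CPM with HIF2A siRNA. Replicate 3 was the highest library in every group, and the group ranges overlapped, yet each double knockdown library lay below the control of its own number. The log2 fold change in the double knockdown was -0.60 ± 0.12 (SE, n = 3 per group; edgeR, adjusted p = 0.00567), a level of 0.661 times control. With HIF2A siRNA it was -0.35 ± 0.12 (edgeR, adjusted p = 0.549) and with HIF1A siRNA -0.14, and neither passed the test.

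KIF11 encodes Eg5, the motor that pushes the spindle poles apart. It stood at 245, 174 and 160 CPM in control replicates 1 to 3 and at 157, 141 and 116 CPM in the double knockdown, so the ranges of these groups were separate. With HIF1A siRNA it stood at 185, 198 and 149 CPM and with HIF2A siRNA at 169, 163 and 134 CPM, between the other groups on average. The log2 fold change was -0.48 ± 0.11 (SE) in the double knockdown (edgeR, adjusted p = 0.0133) and -0.30 ± 0.11 with HIF2A siRNA (edgeR, adjusted p = 0.626).

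BIRC5 encodes survivin, which anchors the chromosome passenger complex at the centromere and is also known as an inhibitor of apoptosis. It stood at 214, 198 and 170 CPM in control replicates 1 to 3 and at 272, 226 and 228 CPM in the double knockdown, without overlap. With HIF1A siRNA it stood at 225, 223 and 192 CPM and with HIF2A siRNA at 221, 229 and 199 CPM, higher than the paired control in all 6 pairs. Its log2 fold change in the double knockdown was 0.32 ± 0.097 (SE; edgeR, adjusted p = 0.0494).

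**Figure D2:**
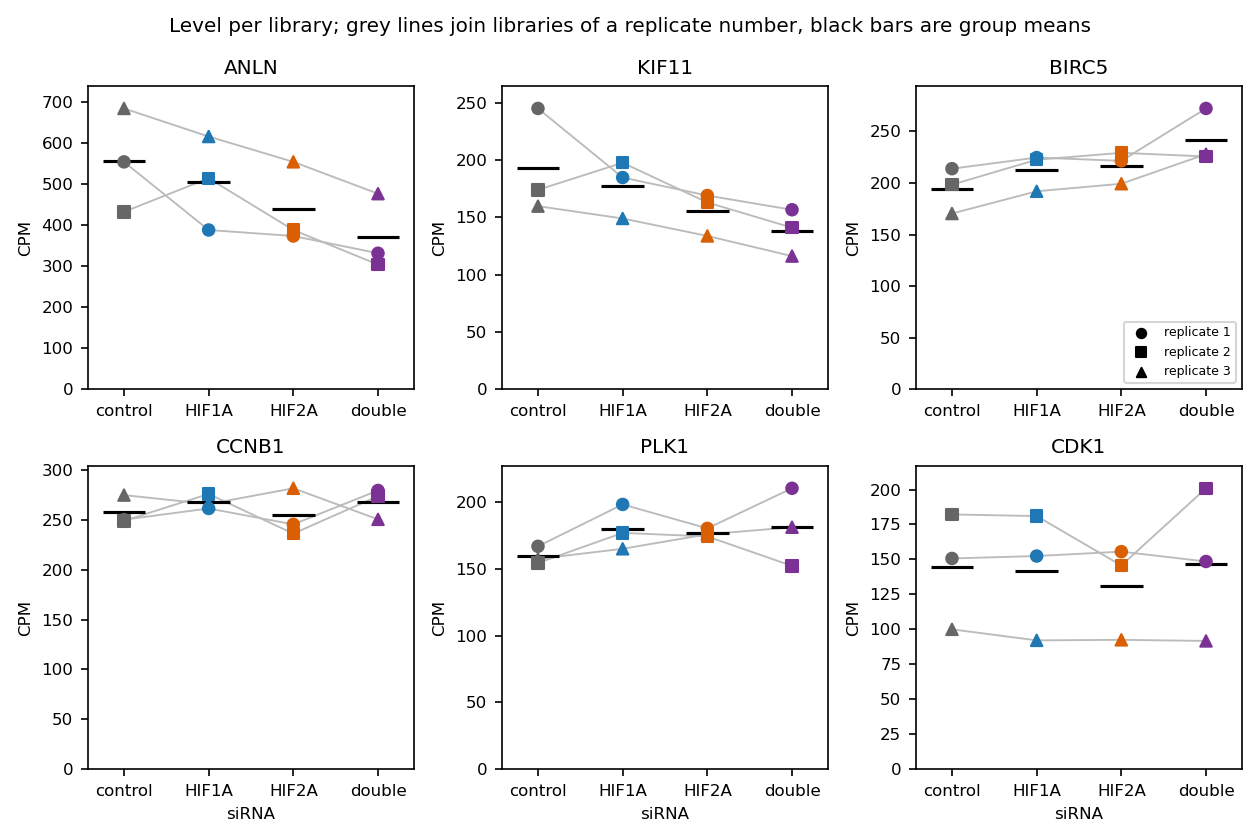
Level in CPM (y axis, from 0) in each library by siRNA group (x axis) for ANLN, KIF11, BIRC5, CCNB1, PLK1 and CDK1. Symbols give the replicate number, grey lines join libraries of a number and black bars are group means. In all 3 lines ANLN and KIF11 are lower, and BIRC5 higher, in the double knockdown than with control siRNA, while replicate 3 of CDK1 lies between 91.7 and 100 CPM in every group.

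These calls rested on the pairing and on single libraries. Without the replicate block none of the 3 genes passed (adjusted p up to 0.446), and none passed without replicate 1 or without replicate 3. ANLN passed in the other 19 of 22 alternatives. KIF11 was lost in 8 of 22, including without control replicate 1 or 3 and without any 1 of the double knockdown libraries. BIRC5 was lost in 14 of 22: with no filter on low counts, and without any single library other than HIF2A siRNA replicate 2 and double knockdown replicate 2, beside the settings that lost all 3 genes. Without HIF2A siRNA replicate 2, 5 members passed, as did 2307 of the 13203 genes tested there. The signs of the 3 changes were the same in all 22 alternatives.

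Among the kinases and cyclins of mitotic entry (CCNB1, CCNB2, CCNA2, CDK1, CDC25C, PLK1 and AURKA), none of 7 passed in any comparison with control. CCNB1, cyclin B1, is the partner that activates CDK1, and its levels were among the steadiest: 249 to 275 CPM with control siRNA, 261 to 276 with HIF1A siRNA, at 236 to 282 with HIF2A siRNA and at 251 to 280 in the double knockdown. CDK1 itself stood at 151, 182 and 100.0 CPM in control replicates 1 to 3 and at 149, 201 and 91.7 CPM in the double knockdown. Its spread lay between replicate numbers and not between siRNAs: its log2 fold change in the double knockdown was 0.00 with a 95% interval from -0.24 to 0.24.

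PLK1, the kinase that promotes entry and spindle assembly, stood at 167, 154 and 157 CPM with control siRNA, at 198, 177 and 165 with HIF1A siRNA, at 180, 174 and 176 with HIF2A siRNA and at 210, 152 and 181 in the double knockdown. It was higher than the paired control in every pair with either siRNA alone and in all but replicate 2 of the double knockdown. The log2 fold changes of 0.17, 0.15 and 0.18 (SE 0.10 each) did not pass (edgeR, adjusted p = 0.730, 0.836 and 0.318). AURKA, the kinase of the centrosome and spindle pole, stood at 150, 148 and 179 CPM with control siRNA, 159, 177 and 162 with HIF1A siRNA, at 164, 140 and 175 with HIF2A siRNA and at 143, 157 and 170 in the double knockdown, with ranges that overlapped throughout.

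CDC25C, the phosphatase that removes the inhibitory phosphates of CDK1, had the largest difference of all members with HIF2A siRNA. It stood at 23.4, 24.4 and 21.1 CPM in the control replicates, 17.0, 17.7 and 15.3 CPM with HIF2A siRNA, 22.0, 24.3 and 18.5 CPM with HIF1A siRNA and 17.7, 19.7 and 16.1 CPM in the double knockdown. All HIF2A siRNA and double knockdown libraries lay below all control libraries. The log2 fold change with HIF2A siRNA was -0.46 ± 0.13 (SE), and -0.45 in each of the 3 pairs (edgeR, adjusted p = 0.341, unadjusted p = 0.00254), and in the double knockdown it was -0.37 ± 0.13 (edgeR, adjusted p = 0.0799). siRNA group accounted for 72.0% of the variance of its log2 CPM, the highest share of the 42 genes. CCNB2 and CCNA2 had log2 fold changes of 0.26 and -0.17 in the double knockdown.

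The spindle checkpoint (BUB1, BUB1B, TTK and MAD2L1) holds the cell in metaphase until every kinetochore is attached. All 4 were lower than control in the double knockdown and with HIF2A siRNA, by medians of -0.25 and -0.14 on the log2 scale, and none passed. Of all 42 members, 25 and 34 were lower in these comparisons, against 49.4 and 49.9% of all genes tested. BUB1, the kinase that marks centromeres, stood at 151, 105 and 143 CPM with control siRNA, 109, 125 and 142 with HIF1A siRNA, at 110, 115 and 141 with HIF2A siRNA and at 103, 81.4 and 125 in the double knockdown. Its log2 fold change in the double knockdown was -0.38 ± 0.13 (SE; edgeR, adjusted p = 0.0800), and that of MAD2L1, the MAD2 protein of the checkpoint complex, was -0.35 ± 0.13 (edgeR, adjusted p = 0.0991).

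The genes of anaphase onset (CDC20, UBE2C, PTTG1 and ESPL1) had medians of 0.05, -0.02 and 0.05 with HIF1A siRNA, HIF2A siRNA and the double knockdown. CDC20, the activator of the anaphase-promoting complex, stood at 224, 237 and 206 CPM with control siRNA, 277, 278 and 233 with HIF1A siRNA, at 248, 223 and 219 with HIF2A siRNA and at 271, 283 and 224 in the double knockdown. It was higher than the paired control in all 3 pairs with HIF1A siRNA, with a log2 fold change of 0.24 ± 0.095 (SE; edgeR, adjusted p = 0.446). It was the only member with an unadjusted p under 0.05 in that comparison.

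Of the 7 kinetochore and centromere genes, 6 were lower with HIF2A siRNA (median -0.18) and none passed. Of all 42 members 34 were lower there, and 49.9% of all genes tested, and the members' shift depended on single libraries, as given below. CENPA is the histone that marks the centromere, CENPE a motor and CENPF a large outer kinetochore protein. NDC80, NUF2, SPC24 and SPC25 form the NDC80 complex, which grips microtubules. Its subunits did not share a direction in the double knockdown, with log2 fold changes of 0.06 (NDC80), 0.08 (NUF2), -0.22 (SPC24) and -0.11 (SPC25). SPC24 had the widest errors of the members (SE 0.26), at 3.84 to 11.7 CPM.

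Among the chromosome passenger and chromosome structure genes, AURKB, the kinase of the passenger complex, stood at 90.7, 122 and 83.8 CPM with control siRNA, 130, 124 and 71.9 with HIF1A siRNA, at 116, 81.0 and 72.3 with HIF2A siRNA and at 109, 126 and 70.7 in the double knockdown. Replicate 3 was lowest in every group. TOP2A, the topoisomerase that untangles sister chromatids, stood at 298, 263 and 326 CPM with control siRNA, 225, 318 and 307 with HIF1A siRNA, at 226, 270 and 323 with HIF2A siRNA and at 223, 328 and 317 in the double knockdown.

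MKI67, the proliferation marker that coats mitotic chromosomes, stood at 619, 455 and 613 CPM with control siRNA, 469, 509 and 600 with HIF1A siRNA, at 508, 561 and 564 with HIF2A siRNA and at 580, 497 and 563 in the double knockdown. Control replicate 2 was its lowest library and control replicate 1 its highest, so the control group alone spanned the other groups. Its log2 fold changes were -0.09, -0.04 and -0.04 (SE 0.12 each), with a 95% interval in the double knockdown from -0.29 to 0.22. The condensin I subunits NCAPG and NCAPH had log2 fold changes of -0.13 and -0.33 in the double knockdown, the latter with an SE of 0.10 (edgeR, adjusted p = 0.0546). NCAPH was also lower in all 3 pairs with HIF2A siRNA (-0.27 ± 0.10, SE; edgeR, adjusted p = 0.662).

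Of the 9 spindle motors and microtubule binders (KIF11, KIF2C, KIF4A, KIF18A, TPX2, NUSAP1, DLGAP5, HMMR and ASPM), only KIF11 passed. With HIF2A siRNA, 8 of the 9 were lower (median -0.09), beside 34 of all 42 members and 49.9% of all genes tested. Of the 5 cytokinesis genes (KIF20A, KIF23, PRC1, ANLN and ECT2), only ANLN passed. KIF23, KIF20A and PRC1, which act at the central spindle, had log2 fold changes of -0.22, 0.32 and -0.02 in the double knockdown. ECT2, the exchange factor that activates RhoA at the furrow where anillin binds, had -0.18. Close to 38.8% of the exon bases of PRC1 and 35.6% of those of NCAPG overlap a gene on the other strand, so their counts are uncertain where strand was not used.

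**Figure D3:**
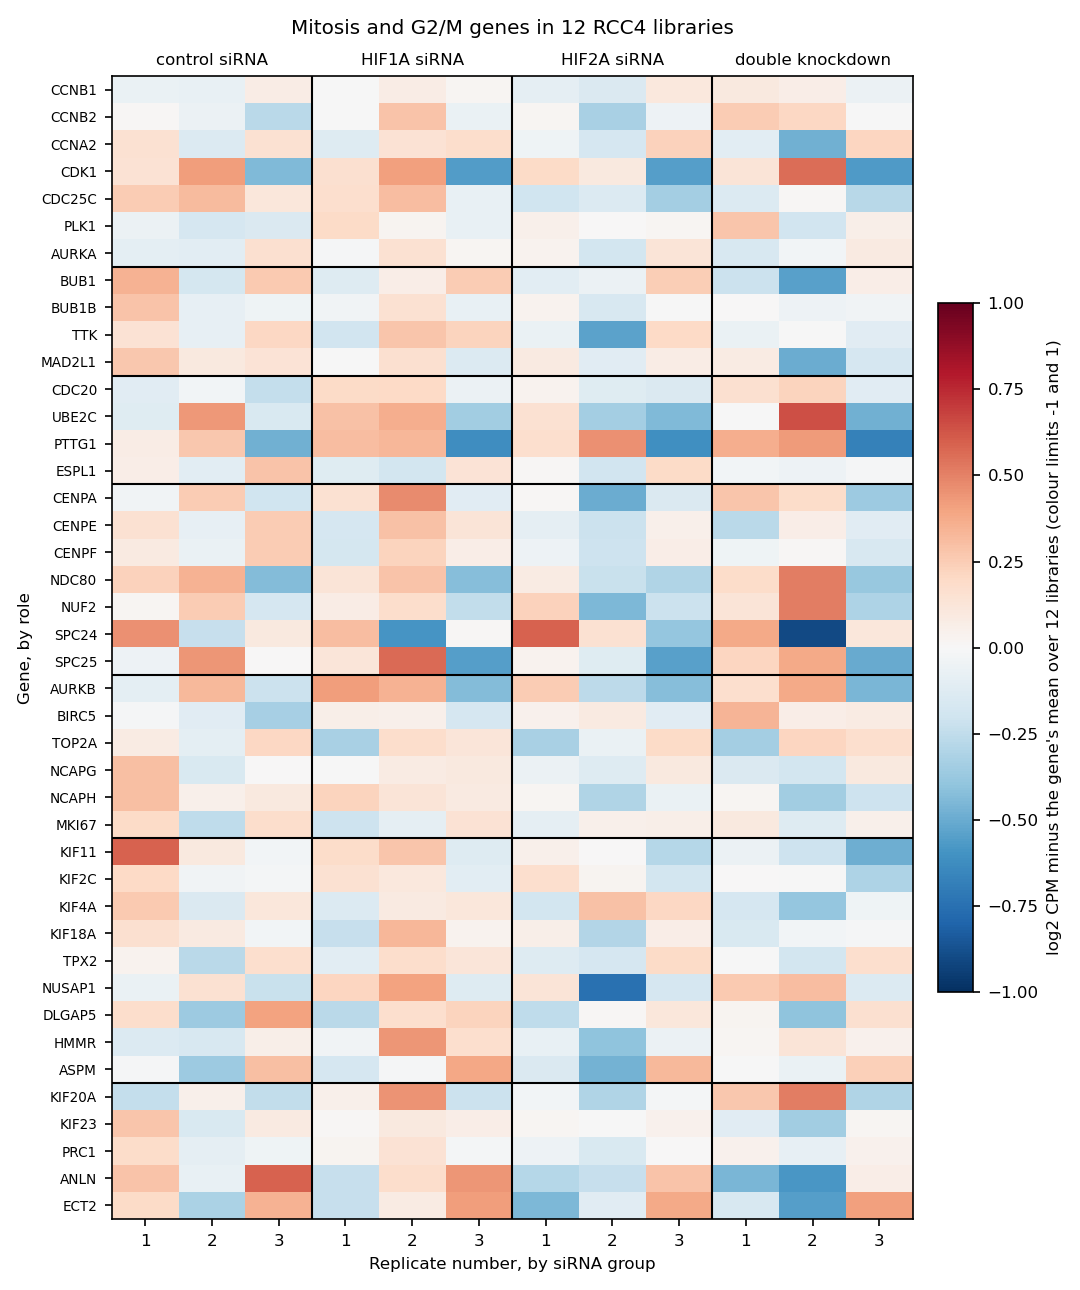
Log2 CPM of each of the 42 genes (rows, ordered by role) minus its mean over the 12 libraries (columns, by siRNA group and replicate number). Red is above and blue below the mean. The blue of replicate 3 for CDK1, PTTG1, UBE2C, SPC25 and AURKB and its red for ECT2, ANLN and ASPM recur in all 4 groups apart from control replicate 3 of SPC25 and double knockdown replicate 3 of ANLN, which are near the mean.

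With HIF1A siRNA, no member was called with edgeR or with DESeq2, against 1.39% of all genes tested with edgeR, and an unadjusted p under 0.05 was reached by 1 member that was higher (3.08% of all genes) and by 0 that were lower (5.53%). The median log2 fold change was -0.00, with 22 genes below 0 and 20 above. Leaving out replicate 1 or replicate 2 moved that median to 0.12 or -0.11. In all 3 pairs, 3 members were lower (7.14%, against 15.3% of all genes) and 7 were higher (16.7%, against 14.8%). The 5 largest differences were HMMR (0.28 ± 0.14, SE), KIF20A (0.24 ± 0.16), CDC20 (0.24 ± 0.095), NUSAP1 (0.21 ± 0.18) and SPC24 (-0.20 ± 0.26), with adjusted p values from 0.446 to 0.896 in edgeR.

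With HIF2A siRNA, no member was called with edgeR or with DESeq2, against 0.2% of all genes with edgeR. At an unadjusted p under 0.05, 4 of the 42 were lower (CDC25C, ANLN, KIF11 and NCAPH), against 475 of the 13000 genes (3.65%), a smaller share. None was higher by that measure, beside 3.03% of all genes. The median log2 fold change was -0.11, and 34 of the 42 genes were below 0, against a median of 0.00 over all genes. Of the 108 other mitosis genes described below, 82 (75.9%) were also below 0, with a median of -0.08. Among the 44 S phase genes, 25 were below 0, with a median of -0.01. In all 3 pairs, 9 members were lower (21.4%, against 12.1% of all genes) and 2 were higher (4.76%, against 10.9%). Single libraries moved this: without control replicate 1 the median was -0.03 with 27 genes below 0, without HIF2A siRNA replicate 2 it was -0.04 with 25, and without replicate 1 it was -0.02 with 23. HIF2A siRNA replicate 2 had the lowest mean log2 CPM of the members (6.66), and the next lowest library had 6.72. Beside those already given, SPC25 had the next largest difference (-0.35 ± 0.17, SE).

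In the double knockdown the median was -0.07 (25 genes below 0), beside 0.00 over all genes. In all 3 pairs 9 members were lower (21.4%, against 25.4% of all genes) and 4 were higher (9.52%, against 26.1%). The median size of the change, whatever its sign, was 0.15 on the log2 scale for the members and 0.23 for all genes. Without adjustment, 6 members were lower at p under 0.05 (13.8% of all genes were) and 2 were higher (11.5% of all genes). The 95% intervals lay within 1.5-fold of control for 39, 37 and 35 of the 42 genes with HIF1A siRNA, HIF2A siRNA and the double knockdown, against 60.4, 62.1 and 47.6% of all genes tested, and within 2-fold for all 42 in each. These intervals hold for 1 gene at a time. Members were also measured with smaller errors, with a median SE of 0.13 in the double knockdown against 0.16 for all genes. There the 44 S phase genes had a median size of 0.11, with 86.4% of intervals within 1.5-fold. The 108 other mitosis genes had 0.16 and 73.1%.

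**Figure D4:**
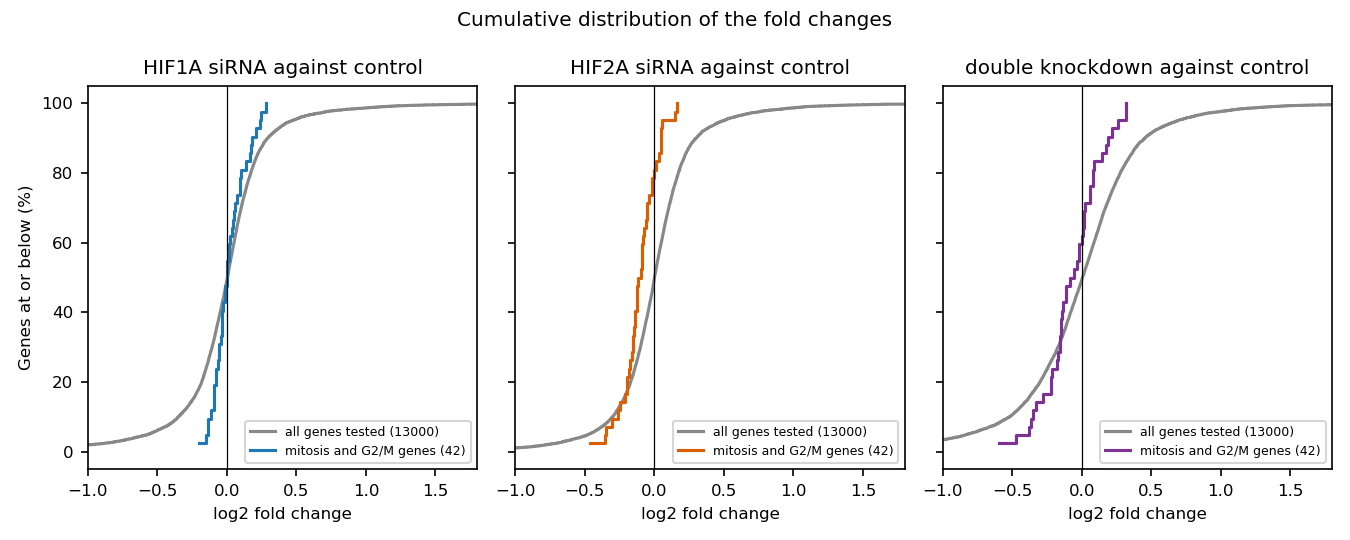
Share of genes (y axis, %) at or below a log2 fold change (x axis) against control siRNA, for the 42 mitosis and G2/M genes (colour) and the 13000 genes tested (grey), in 3 panels by siRNA. The members' curves are steeper, and with HIF2A siRNA the curve lies left of the grey one around 0, with a median of -0.11. The members' median SE was smaller than that of all genes in each panel. Genes beyond the limits of the x axis are not drawn.

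Between the siRNA groups themselves, none of the 42 passed with edgeR. Against HIF1A siRNA, the double knockdown had 5 members lower at an unadjusted p under 0.05 and 0 higher, beside 6.97 and 5.22% of all genes. After adjustment 1.4% of all genes were called. ANLN (-0.46 ± 0.12, SE; edgeR, adjusted p = 0.0874), KIF11 (-0.36 ± 0.11; edgeR, adjusted p = 0.150) and NCAPH (-0.33 ± 0.10; edgeR, adjusted p = 0.164) were the largest, ahead of BUB1 (-0.30) and CDC25C (-0.27). DESeq2 called 1 member there, ANLN, and edgeR called ANLN too without control replicate 1 or without HIF2A siRNA replicate 2. Over all genes DESeq2 called 403 of 13000. Without control replicate 1 edgeR called 272 of 13212, and without HIF2A siRNA replicate 2 it called 442 of 13203. Against HIF2A siRNA, where 4% of all genes were called, 1 member was lower at an unadjusted p under 0.05 (KIF4A, -0.31 ± 0.14) and 0 were higher, beside 10.1 and 7.75% of all genes, and DESeq2 called none. NUSAP1 (0.36 ± 0.18, SE), SPC24 (-0.27 ± 0.26), KIF20A (0.26 ± 0.16) and CCNB2 (0.26 ± 0.13) were the other large ones.

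HIF1A siRNA against HIF2A siRNA set the single knockdowns side by side, with EPAS1 also below its control range in the HIF1A siRNA libraries. No member was called by edgeR or by DESeq2, against 1.92% of all genes in edgeR, and 0 were lower and 3 higher at an unadjusted p under 0.05 (CDC25C, NCAPH and HMMR), beside 6.83 and 5.24% of all genes. In this direct comparison 36 of the 42 were higher with HIF1A siRNA, with a median of 0.11. Of the 108 other mitosis genes 70 were higher (median 0.07), as were 27 of the 44 S phase genes (median 0.06). In all 3 pairs 11 members were higher (26.2%, against 17.9% of all genes) and 0 were lower (against 19.2%). Without replicate 2 the median fell to 0.01 and 19 members were below 0, and without HIF1A siRNA replicate 2 alone 18 were. NUSAP1 (0.38 ± 0.18, SE), HMMR (0.37 ± 0.14), CDC25C (0.37 ± 0.13), CENPA (0.37 ± 0.17) and UBE2C (0.29 ± 0.18) were the largest, with adjusted p values in edgeR from 0.222 to 0.562.

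The interaction of the siRNAs asks whether the double knockdown differs from the sum of the single ones. No member passed in edgeR or DESeq2, none had an unadjusted p under 0.05, and the share called over all genes was 0% in edgeR (203 genes lower, 1.56%, and 115 higher, 0.885%, at an unadjusted p under 0.05), where DESeq2 called 11 genes. The median was 0.02, with the largest values for SPC25 (0.33 ± 0.24, SE), NDC80 (0.30 ± 0.20), NUF2 (0.27 ± 0.24), KIF4A (-0.25 ± 0.20) and UBE2C (0.21 ± 0.25). ANLN, KIF11 and BIRC5 were called in the double knockdown only, but as their interactions did not pass, the double knockdown was not shown to differ from the sum of its parts.

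The replicate number held a larger share of the variance of these genes than the siRNA. The squared deviations of log2 CPM were added over the 42 genes, so the most variable genes weigh most. Of this pooled variance, replicate number held 52.6%, siRNA group 18.7% and the remainder 28.8%. Pooled in the same way over all genes, the shares were 49.8, 25.8 and 24.4%. In 25 of the 42 (59.5%) the replicate share was larger than the siRNA share, as it was in 67.8% of all genes. With edgeR, 16 members differed between replicate numbers at an adjusted p under 0.05, against 50.3% of all genes, and 9 of the 16 were lower in replicate 3 than in the mean of replicates 1 and 2, beside 47.4% of the genes called over all.

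The differences of replicate 3 reached larger sizes than those of the siRNAs. PTTG1 fell by 0.90 on the log2 scale in replicate 3 (SE 0.086; edgeR, adjusted p = 1.17e-05 for the replicate number), from geometric means of 160 and 177 CPM in replicates 1 and 2 to 90.1 CPM. CDK1 fell by 0.80, from 152 and 176 to 94.0 CPM. SPC25 fell by 0.61, NDC80 by 0.58, AURKB by 0.58 and UBE2C by 0.55. In the other direction ECT2 rose by 0.57, ANLN by 0.51 and ASPM by 0.47, so these genes stood high in the libraries in which CDK1 and PTTG1 stood low. The roles did not share these directions. The other cytokinesis genes differed by -0.29 (KIF20A), -0.0064 (PRC1) and 0.08 (KIF23). The entry genes other than CDK1 ran from -0.22 (CDC25C) to 0.29 (CCNA2).

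Transcript length and this difference were correlated, with exceptions. Members under 2200 bases (14 genes) had a median difference of -0.34 in replicate 3, and members over 4000 bases (13 genes) one of 0.14. Across the 42 genes the Spearman correlation of length with the replicate 3 difference was 0.67, and across 12596 tested genes with a length it was 0.52, given as descriptions since genes of a library share its preparation. KIF11, with 5016 bases, went the other way, with a log2 difference of -0.35 in replicate 3 (edgeR, adjusted p = 0.00598 for the replicate number). The double knockdown against control had a correlation with length of -0.50 across the members and -0.21 across all genes, HIF1A siRNA -0.42 and -0.23, and HIF2A siRNA -0.09 and -0.05. ANLN and KIF11, with transcripts of 4731 and 5016 bases, are on the long side, and BIRC5 with 2574 bases is not. With the trends in length and GC content removed and the replicate block kept, ANLN, KIF11 and BIRC5 were still called and CDC25C with them, while the median with HIF2A siRNA went to -0.05. Over all genes, 1971 of 12596 were called in the double knockdown with the trends removed, against 1336 of 13000 with them kept. The part of length in these results was not tested further.

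**Figure D5:**
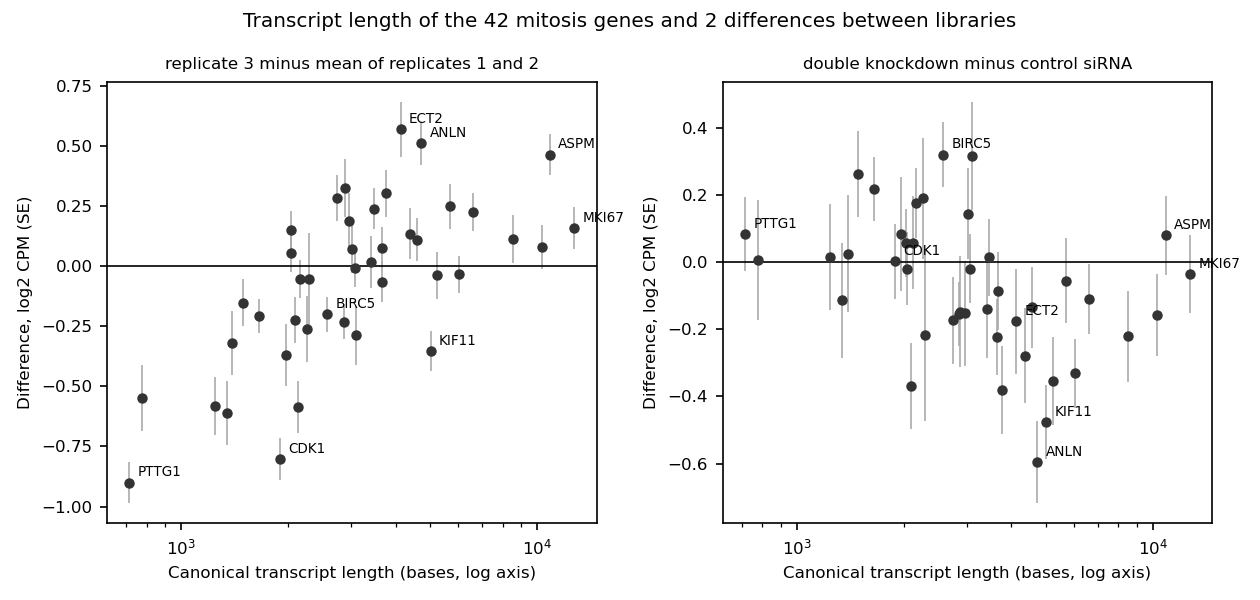
Length of the canonical transcript (x axis, bases, log scale) of the 42 genes against their difference on the log2 scale (y axis, points with SE), for replicate 3 minus the mean of replicates 1 and 2 (left) and for the double knockdown minus control siRNA (right). PTTG1, the shortest transcript (715 bases), is the lowest point on the left, and ANLN and KIF11 are the lowest points on the right.

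The regulators of these promoters were examined next, from a list of 30 genes chosen with earlier results of these data known. FOXM1 stood at 263 to 334 CPM with control siRNA and at 243 to 307 CPM in the double knockdown, with a log2 fold change of -0.15 ± 0.093 (SE; edgeR, adjusted p = 0.355). MYBL2 (0.08 ± 0.11) did not pass either, nor did LIN54 (-0.30 ± 0.14; edgeR, adjusted p = 0.186). None of the 30 passed with HIF1A siRNA or HIF2A siRNA alone in edgeR, against 1.39 and 0.2% of all genes. DESeq2 called 0 with either. At an unadjusted p under 0.05 in edgeR, 2 were lower and 2 higher with HIF1A siRNA (5.53 and 3.08% of all genes). With HIF2A siRNA 1 was lower and 1 higher (3.65 and 3.03% of all genes). In the double knockdown, 5 of the 30 passed (16.7%, against 10.3% of all genes tested), 3 lower and 2 higher.

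E2F7, a repressor E2F that is itself made in S phase, had the largest change. It stood at 133, 67.4 and 158 CPM in the control replicates and at 57.8, 47.6 and 76.0 CPM in the double knockdown, a log2 fold change of -0.94 ± 0.14 (SE; edgeR, adjusted p = 0.000560). CDKN1A, the CDK inhibitor p21, stood at 113, 92.8 and 152 CPM with control siRNA and at 74.7, 66.4 and 127 CPM in the double knockdown and fell by 0.44 on the log2 scale (edgeR, adjusted p = 0.0236). E2F1, an activator E2F, stood at 54.6, 60.0 and 41.9 CPM with control siRNA and at 83.4, 73.0 and 56.8 CPM in the double knockdown and rose by 0.44 (edgeR, adjusted p = 0.0196). In CDKN1A and E2F1 each double knockdown library moved the same way from the control of its number although the groups overlapped. RBL2, the p130 protein of DREAM, fell by 0.37 and TFDP2, an E2F partner, rose by 0.51. Of these 5 calls, only that of E2F7 held when each replicate number or library was left out in turn, and none held without the replicate block.

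Outside the 42, 108 other genes of mitosis were tested. In the double knockdown against control, 3 of them passed (2.78%), a smaller share than the 10.3% of all genes. FAM83D, which recruits a kinase to the spindle, fell by 0.39. NCAPD2, a condensin I subunit, and UBE2S, which extends ubiquitin chains for the anaphase-promoting complex, each rose by 0.42. These calls were lost in 7, 11 and 11 of 22 alternatives, in order. The median over the 108 was -0.08, beside -0.07 for the members. NCAPD2 and the members NCAPG and NCAPH belong to 1 complex, and their log2 fold changes of 0.42, -0.13 and -0.33 differed in sign. In HIF1A siRNA against HIF2A siRNA, 1 of the 108 passed (0.926%, against 1.92% of all genes). It was ANAPC13, a small subunit of the anaphase-promoting complex, higher by 0.43 (edgeR, adjusted p = 0.0382), a call that was lost in 17 of 23 alternatives.

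Of 44 genes of S phase, 2 passed in the double knockdown (4.55%), a smaller share than the 10.3% of all genes. RRM2, the small subunit of ribonucleotide reductase, stood at 135, 139 and 139 CPM in the control replicates, at 147, 167 and 158 with HIF1A siRNA, at 155, 122 and 182 with HIF2A siRNA and at 246, 203 and 237 in the double knockdown, above every other library. It rose by 0.73 on the log2 scale (SE 0.12; edgeR, adjusted p = 0.00157), and by 0.54 and 0.59 against HIF1A siRNA and HIF2A siRNA. The first of these calls was lost in 1 of 22 alternatives, without replicate 3 (edgeR, adjusted p = 0.0599), and the others in 13 and 6 of 22. DTL, which directs the destruction of replication licensing proteins, fell by 0.41, a call lost in 11 of 22. The S phase median was 0.03.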

How the data were processed

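Bulk RNA-seq counts of 12 RCC4 libraries (4 siRNA groups of 3) were analysed. The count values were deposited by the authors as raw fragments per gene symbol, without normalization, and no other unit was used. The authors trimmed reads with Trim Galore (0.3.3), aligned them with HISAT2 (2.05) to hg19, dropped fragments that mapped to several places with Picard (2.0.1), and counted with HTSeq (0.5.4p3) in its strict intersection mode. Whether counting used strand is not given in the sources used here, so genes that overlap on opposite strands, and near copies such as KIF4B beside KIF4A, are uncertain. Multi-mapped fragments are absent, which lowers genes with close copies.

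The quasi-likelihood test of edgeR 4.0.16 (R 4.3.3) was fitted to all 12 libraries with TMM scaling, the default expression filter (minimum count 10, minimum total 15), and a block for replicate number, by which the study's methods pair the conditions. P-values were adjusted over the 13000 genes left. DESeq2 1.42.0 was an alternative, as were DESeq2 size factors, no filter, 10 counts in every library, no block, only the compared groups, 9 libraries without the double knockdown, an adjusted p of 0.1, and leaving out each replicate number or library. Removal of length and GC trends (natural splines with 5 degrees of freedom) and the test of the replicate number were added after the data had been seen. Deviations from group means correlated at 0.0991 to 0.813 between libraries of the same number and at -0.724 to 0.527 between others. Because deviations sum to 0 within a group, this contrast is partly built in. Numbers 1 and 2 were not clearly separate. Control replicate 2 correlated at 0.527 and 0.231 with HIF2A siRNA replicates 1 and 2. With replicates 1 and 2 of HIF1A siRNA it correlated at 0.489 and 0.514, and with those of the double knockdown at 0.244 and 0.706. Replicates of a group differed by more than sampling noise, so none was merged.

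Level per kilobase used the canonical transcript of GENCODE 44, which is not the authors' annotation. CPM ratios within pairs used 0.5 CPM as pseudocount. Values were given in every library for CCNB1, CDK1, PLK1, AURKA, AURKB, BUB1, CDC20, TOP2A and MKI67, and for each comparison the 10 called members with the smallest adjusted p were named, or the 5 with the largest change where none was called. The fit was tested on simulated data. The members and all lists were chosen with earlier results of these data known.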

Additional observations from a re-analysis of the deposited data

How the results depend on the processing

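No result changed sign while called. In the double knockdown against control, 3 members were called, 7 at an adjusted p under 0.1 (with NCAPH, CDC25C, BUB1 and MAD2L1), 7 with only the compared groups in the fit and 0 without the replicate block. Over all genes 1336 of 13000 were called in the main fit. With only the compared groups 2609 of 12553 were called, and without the block 195 of 13000. Leaving out a replicate number or library gave 0 (without replicate 1 or replicate 3) to 5. Over all genes, 513 of 12968 were called without replicate 1 and 302 of 12987 without replicate 3. Without HIF2A siRNA replicate 2, which gave the 5 members, 2307 of 13203 were called. Against HIF1A siRNA the count of 0 became 1 at an adjusted p under 0.1, with no filter, with DESeq2 and with the length and GC trends removed (replicate block kept), 2 with only the compared groups, and 0 to 1 when a replicate number or library was left out. Over all genes, 403 of 13000 were called with DESeq2 and 266 of 17033 with no filter. With the trends removed 367 of 12596 were called, and with only the compared groups 656 of 12631. ANLN was among the members called against HIF1A siRNA wherever the count of members was above 0. The median with HIF2A siRNA, -0.11, was -0.16 at its lowest and -0.0249 at its highest (without replicate 1) when a replicate number or library was left out. It was -0.0526 with the length and GC trends removed. The replicate number called 16 members, and 18 with those trends removed. The block changed no other call on the members. The medians with HIF1A siRNA changed sign in 18 of 23 alternatives, between -0.11 and 0.12.

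The cause of these shifts was not tested. Leaving out libraries also leaves a smaller number of samples. With 3 libraries a group, the widest standard error of a member was that of SPC24, which also had the lowest count. Counts that were 0 and stayed 0 say nothing about stability. Of 156 alternative medians, 152 moved by less than the spread between pairs.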
